A study of Mus musculus with 8 samples.

Results

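The genes described here are direct feedback targets of the Wnt pathway, measured in wild-type (WT) and cancer cells of the mouse intestine cultured as organoids, either apart or together. A list of 9 genes was used, namely Axin2, Nkd1, Notum, Rnf43, Znrf3, Sp5, Wif1, Apcdd1 and Tcf7, and its members were found as the rows of the read count table that carry these symbols. Of the 9, 7 had a row among the 13420 genes of the table. No row carried the symbol Wif1 or Apcdd1, which were not analysed here. A filter on low counts kept 5264 genes for testing, and 5 members were among them (Axin2, Nkd1, Notum, Rnf43 and Sp5). Znrf3 and Tcf7 did not pass it and are given by their reads.

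WT organoids came from the small intestine of mTmG mice (membrane-bound tdTomato, C57BL/6). Cancer organoids carried Villin-CreERT2, Apcfl/fl and Tr53fl/R172H among their alleles, were labelled with Dendra2 and were of strain C57BL/6 (F6). The Villin promoter places the Cre recombinase in epithelial cells, and per the methods recombination was induced with tamoxifen. Both were cultured apart (pure WT, pure cancer) or mixed at 2 parts WT to 1 part cancer cells (mixed WT, mixed cancer), and living cells of each color were sorted on day 3 after mixing. All 4 groups were grown in the same medium, which held R-spondin1, an agonist of the pathway, together with EGF and Noggin. Each group has 2 libraries, named by their wells, 8 libraries in all, made with CEL-Seq, which counts the 3′ ends of polyadenylated transcripts. The cancer groups differ from the WT groups in Apc, Trp53 and further alleles at once and in their origin, so the part of Apc alone cannot be told apart from the others. The labels do not say whether the 2 libraries of a group came from separate cultures, so p-values measure only the spread between these libraries.

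In the resting Wnt pathway, a complex built on Apc and Axin proteins marks β-catenin for destruction. When a Wnt ligand binds its receptor, or when Apc is lost, β-catenin accumulates, enters the nucleus and joins TCF/LEF factors on DNA. Several of the genes switched on in this way encode brakes on the pathway: Axin2 rebuilds the destruction complex, Nkd1 acts on Dishevelled, Notum is secreted and removes the lipid that Wnt ligands need, and Rnf43 and Znrf3 are membrane ubiquitin ligases that clear Frizzled receptors. Sp5 and Tcf7 are transcription factors of the same response. In the intestinal crypt this response maintains stem and Paneth cells.

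In GRCm38 the members with reads lie on 3 chromosomes. Nkd1 (ENSMUSG00000031661.12) is at chr8:88521354-88594884 on the plus strand, Axin2 (ENSMUSG00000000142.15) at chr11:108920349-108950783 on the plus strand and Notum (ENSMUSG00000042988.10) at chr11:120653788-120661175 on the minus strand. Rnf43 is at chr11:87662722-87735539 (plus), Znrf3 at chr11:5276324-5444847 (minus), Sp5 at chr2:70474923-70477729 (plus) and Tcf7 at chr11:52252371-52283014 (minus). All are protein-coding. The last exon of Notum overlaps an antisense gene, Myadml2os, and that of Tcf7 overlaps Gm26551 on the same strand, and whether the counting used strand is not given in the sources used here. Reads of Notum and Tcf7 therefore cannot be separated with certainty from those partners.

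RefSeq promoter windows (GRCm38.p6) were found for 6 of the 9 members. The 250 bases before the start are shown for Nkd1, called in every comparison of cancer with WT cells below, for Axin2, called in 1 of them, and for Sp5, called in none. Capitals mark TCF/LEF-type words, which are CTTTG followed by AA, AT, TA or TT, searched on both strands. These are the starts of the RefSeq entries. That of Nkd1 lies inside the gene as given above, and the bases before its first start were not searched. The Nkd1 window is at chr8:88527383-88527632, the Axin2 window at chr11:108920099-108920348 and the Sp5 window at chr2:70474673-70474922, all on the plus strand.
Nkd1: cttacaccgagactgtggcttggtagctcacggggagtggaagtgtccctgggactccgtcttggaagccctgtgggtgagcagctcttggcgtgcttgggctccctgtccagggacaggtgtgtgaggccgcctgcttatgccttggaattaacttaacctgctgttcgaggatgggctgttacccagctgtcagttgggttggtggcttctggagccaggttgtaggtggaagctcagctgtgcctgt
Axin2: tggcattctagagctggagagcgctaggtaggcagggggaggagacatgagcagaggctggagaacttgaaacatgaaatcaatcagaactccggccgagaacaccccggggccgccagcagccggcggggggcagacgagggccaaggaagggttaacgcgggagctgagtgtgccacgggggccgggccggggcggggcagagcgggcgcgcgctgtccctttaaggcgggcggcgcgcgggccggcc
Sp5: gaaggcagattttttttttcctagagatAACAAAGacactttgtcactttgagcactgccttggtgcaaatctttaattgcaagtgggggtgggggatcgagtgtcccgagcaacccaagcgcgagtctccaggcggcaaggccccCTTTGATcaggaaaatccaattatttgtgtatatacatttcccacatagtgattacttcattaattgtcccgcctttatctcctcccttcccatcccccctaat
Sp5 held 2 of these words, CTTTGTT on the minus strand and CTTTGAT on the plus strand. Their bases farthest from the start lie 222 and 104 bases before it. No such word was in the window of Nkd1 or Axin2. Of all 32851 promoter windows of this length, 14.8% held at least 1 of the 4 words, 5.03% CTTTGTT and 3.21% CTTTGAT. The letters were only matched, and no binding was measured.

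Depth differed strongly between libraries and limits the members, which are low genes. Total reads ranged from 73109 in mixed WT library A02 to 4733121 in mixed cancer library A04. Library A02 held 1 read of all members together, and 26.1% of the tested genes had no read in it, against 8.70% or less in each other library. The level that 3 reads make, taken here as the limit of a count of 0, was 39.3 counts per 1000000 reads (CPM) in A02, 15.7 or less in each other library and 0.587 in A04. Limits and counting intervals cover counting error only, as reads include amplification copies. Apc itself, the gene after which the comparison is named, had 1 and 4 reads for pure WT, 0 and 2 in mixed WT, 2 and 0 in pure cancer and 22 and 0 in mixed cancer libraries, and its 3′ tags need not lie in the deleted part, so it checks no label. The epithelial identity of the samples was met by its markers, whose summed level was between 4445 and 15046 CPM in all 8 libraries, with none of the 5 markers at 0 in any group. Of 14 fibroblast, immune and endothelial markers, 3 had a row, and their summed level stayed at 7.31 CPM or less per cell type.

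Nkd1, the inhibitor acting on Dishevelled, was far higher in each cancer library than in any WT library. Its 2 pure WT libraries (A01, A05) held 11 and 15 reads, or 10.1 and 8.43 CPM. The mixed WT libraries (A02, A06) held 1 and 0 reads, or 13.1 and 0 CPM. The pure cancer libraries (A03, A07) held 54 and 38 reads, or 283 and 114 CPM. The mixed cancer libraries (A04, A08) held 1050 and 37 reads, or 205 and 192 CPM. Every cancer library was above every WT library, and the pure and mixed cancer libraries overlapped. The mean in pure WT was 9.25 ± 1.16 CPM (SD, n = 2) and that in pure cancer cells 198.6 ± 119.98 CPM (SD, n = 2).

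Notum, the secreted enzyme that inactivates Wnt ligands, was nearly absent from WT cells. Pure WT libraries held 0 and 2 reads (0 and 1.12 CPM) and mixed WT libraries 0 and 2 reads (0 and 4.53 CPM). Pure cancer libraries held 5 and 33 reads (26.2 and 98.8 CPM). Mixed cancer libraries held 363 and 19 reads (71.0 and 98.6 CPM). All 4 cancer libraries were above WT libraries A01, A05 and A06, with A03 the lowest of them. The 0 of A02 allows up to 39.3 CPM, above the 26.2 CPM of A03, so the order of these libraries is not known for Notum. Over the 8 libraries, an exact two-sided permutation test of 4 cancer against 4 WT libraries gave p = 0.0286 for Nkd1 and for Notum, the smallest p that this design allows, which for Notum takes the 0 of A02 as a level. The 4 cancer libraries were above the 4 WT libraries in 8.24% of all tested genes, and, read in the same way, in 2 of the 5 tested members. Nkd1 and Notum passed the filter on low counts through cancer libraries alone, so this count of members is a description.

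Axin2, the scaffold protein widely used as a readout of the pathway, did not follow that order. Pure WT libraries held 83 and 275 reads, or 76.0 and 155 CPM. Mixed WT libraries held 0 and 9 reads, or 0 and 20.4 CPM. Pure cancer libraries held 10 and 23 reads, or 52.5 and 68.8 CPM. Mixed cancer libraries held 589 and 53 reads, or 115 and 275 CPM. Both pure WT libraries were thus above both pure cancer libraries, while both mixed WT libraries were below all the others. The 4 cancer and 4 WT libraries overlapped, and the exact permutation test between them gave p = 0.257. In order, the group means were 10.2 ± 14.4 CPM for mixed WT, 60.7 ± 11.6 CPM for pure cancer, 115 ± 55.6 CPM for pure WT and 195 ± 113 CPM for mixed cancer cells (SD, n = 2 each), and the last 2 overlapped in their libraries. Pure cancer and pure WT libraries, neighbours in that order, did not overlap but were not called different.

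The ubiquitin ligases were low everywhere. Rnf43 had 8 and 13 reads in pure WT (7.32 and 7.31 CPM), 0 and 5 in mixed WT (0 and 11.3 CPM), 5 and 13 in pure cancer (26.2 and 38.9 CPM) and 144 and 1 in mixed cancer libraries (28.2 and 5.19 CPM). Both pure cancer libraries were above both pure WT libraries. Mixed cancer library A08 held 1 read where 3 reads make 15.6 CPM, so its order against the pure WT libraries is not known. The exact permutation test over all libraries, which takes the 0 of A02 as a level, gave p = 0.114. Znrf3, its close relative, had 1 and 8 reads in pure WT (0.915 and 4.50 CPM), 0 and 2 in mixed WT (0 and 4.53 CPM), 1 and 4 in pure cancer (5.25 and 11.97 CPM) and 81 and 0 in mixed cancer libraries (15.8 and 0 CPM). The 0 of A08 allows up to 15.6 CPM and the 0 of A02 up to 39.3 CPM, so the order of the libraries is not known for Znrf3. The exact permutation test (p = 0.286) takes these zeros as levels. A04, by far the deepest library, held most of the Znrf3 reads.

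The transcription factors showed no difference that held over both cultures. Sp5 had 73 and 49 reads in pure WT (66.8 and 27.5 CPM), 0 and 8 in mixed WT (0 and 18.1 CPM), 1 and 6 in pure cancer (5.25 and 18.0 CPM) and 74 and 13 in mixed cancer libraries (14.5 and 67.4 CPM). Its highest levels were in one pure WT and one mixed cancer library, and the exact permutation test gave p = 0.914. Tcf7 had 0 and 3 reads in pure WT, none in mixed WT or pure cancer, and 5 and 2 in mixed cancer libraries, levels at which no difference was detectable (exact permutation p = 0.714). The 2 mixed WT libraries together would allow Tcf7 up to 5.80 CPM and the 2 pure cancer libraries up to 5.72 CPM.

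**Figure D1:**
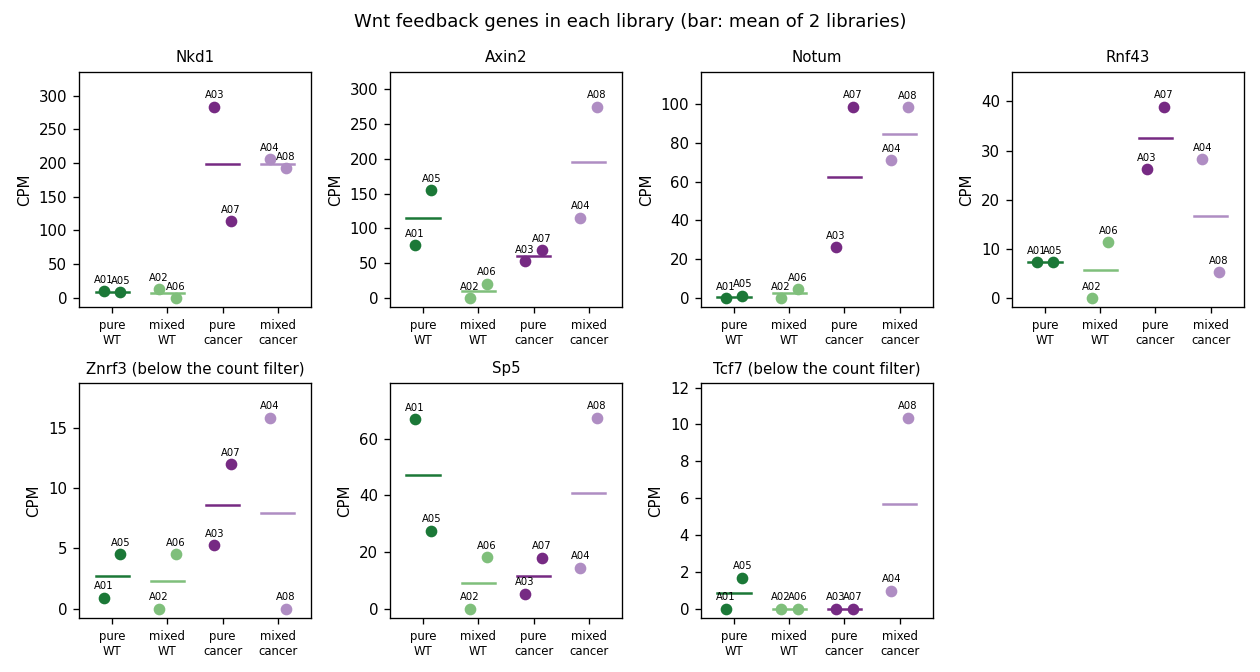
Level of each Wnt feedback gene in CPM (vertical axis, linear, one scale per gene) in the 8 libraries by group; points are libraries, named by well, and bars are group means of 2 libraries. Nkd1 is higher in all cancer than in all WT libraries. Notum is higher in all cancer libraries than in A01, A05 and A06, while its 0 in A02 allows up to 39.3 CPM. Axin2 is high in pure WT libraries and low in mixed WT libraries. Sp5 in A06 is below both pure WT libraries, while its 0 in A02 also allows up to 39.3 CPM.

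The comparison of pure cancer with pure WT cells addresses how the feedback genes differ between the cell types without contact. Nkd1 was higher in pure cancer cells by 4.40 on the log2 scale (SE 0.70, adjusted p = 0.000143, edgeR quasi-likelihood test with Benjamini-Hochberg adjustment over the 5264 genes). Notum was higher by 6.38 (SE 1.08, edgeR adjusted p = 0.000258). Since Notum had only 2 reads in pure WT against 38 in pure cancer cells, its pooled ratio of 104 has a 95% counting interval of 26.9 to 890. Of the 5 tested members, 2 were called higher and 0 lower, where 5.11% of all tested genes were called higher and 4.84% lower. Rnf43 had a log2 difference of 2.17 (SE 0.97, adjusted p = 0.198), Axin2 of -0.91 (SE 0.64, adjusted p = 0.468) and Sp5 of -1.88 (SE 1.00, adjusted p = 0.303), none of them called. Nkd1, Notum and Rnf43 passed the filter on low counts through cancer libraries alone. The count of members called, here and in the comparisons of cancer with WT cells below, is therefore a description.

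In mixed culture, Axin2 joined the members that differed. Mixed cancer cells held more Axin2 than mixed WT cells by 3.57 on the log2 scale (SE 0.80, edgeR adjusted p = 0.00580), with 642 reads against 9 and a ratio of reads pooled over libraries, to which the deep A04 contributes most, of 6.96 (95% counting interval 3.65 to 15.3). Nkd1 was higher by 6.49 (SE 1.11, edgeR adjusted p = 0.000340), and with 1 read in mixed WT cells its pooled ratio of 106 has an interval of 19.0 to 4195. Notum was higher by 4.44 (SE 1.16, edgeR adjusted p = 0.0184), with 382 reads against 2 and a ratio of 18.6 (interval 5.13 to 155). Thus 3 of 5 tested members were called higher and 0 lower, where 2.01% of all tested genes were called higher and 4.41% lower. Rnf43 (log2 difference 1.21, adjusted p = 0.680) and Sp5 (1.31, adjusted p = 0.622) were not called. Without the shallow library A02 the same 3 members were called, Axin2 at 3.18 (adjusted p = 0.0102), Notum at 4.15 (adjusted p = 0.0235) and Nkd1, then with 0 reads in mixed WT cells, with an adjusted p of 1.22e-05. Without A06, which leaves A02 as the single mixed WT library, Notum was not called (edgeR adjusted p = 0.133).

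Over both cultures, Nkd1 (log2 difference 5.44, SE 0.64, edgeR adjusted p = 1.01e-06) and Notum (5.41, SE 0.79, edgeR adjusted p = 1.93e-05) were the 2 members called higher in cancer cells, with 0 called lower. The shares over all tested genes were 6.8% higher and 7.37% lower. Axin2 had a log2 difference of 1.33 (SE 0.52, adjusted p = 0.0950), Rnf43 of 1.69 (SE 0.74, adjusted p = 0.153) and Sp5 of -0.28 (SE 0.75, adjusted p = 0.869). When barcode counts, which count molecules and not reads, were tested in place of reads, Axin2 was also called over both cultures (log2 difference 1.51, edgeR adjusted p = 0.0120).

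**Figure D2:**
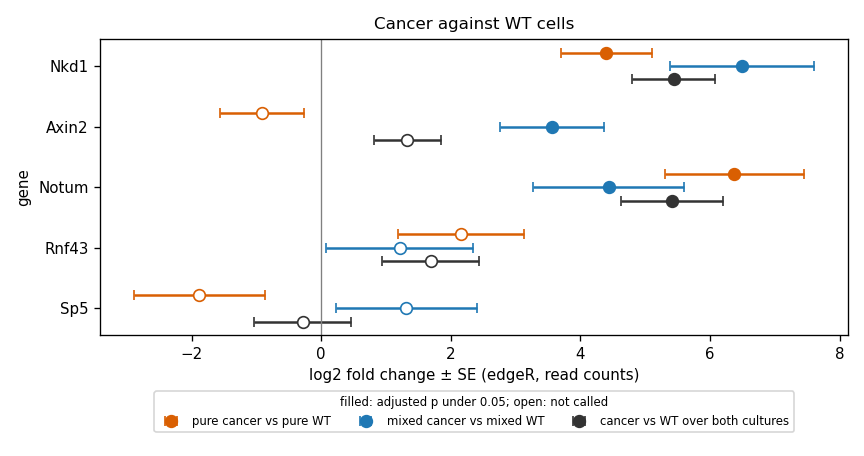
Log2 fold change of cancer against WT cells (horizontal axis, edgeR on read counts) for the 5 tested members in pure culture, in mixed culture and over both; bars are 1 SE and filled points have an adjusted p under 0.05. Nkd1 and Notum lie at 4.40 or above in all 3 comparisons, while Axin2 lies at -0.91 in pure and 3.57 in mixed culture.

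The comparison of mixed with pure WT cells asks how WT cells respond to the presence of cancer cells. No member was called on read counts (edgeR, 0 of 5, with 0.741% of all tested genes called). An unadjusted p under 0.05 was seen for 1 member, Axin2, and for 509 of all 5264 tested genes. Axin2 was lower in both mixed WT libraries than in both pure WT libraries, with a log2 difference of -2.87 (SE 0.79, edgeR adjusted p = 0.116) and 9 reads against 358. The pooled Axin2 ratio was 0.139 (95% counting interval 0.0633 to 0.268). On barcode counts (0 and 3 in mixed WT, 48 and 94 in pure WT libraries) Axin2 was called lower, with a log2 difference of -3.41 (edgeR adjusted p = 0.000770). It was also called on estimated transcript counts (adjusted p = 0.0123), without the filter on low counts (0.0355), in a fit of the 4 WT libraries alone (0.0350) and without A01 (0.0346), A03 (0.0111), A07 (0.0121) or A08 (0.0399), which makes 8 of the 15 alternatives. It was not called in the other 7, namely without A02 (-2.54, edgeR adjusted p = 0.129), A04 (0.0668), A05 (-2.28, adjusted p = 0.818) or A06 (0.158), with median-of-ratios factors (0.103), at a minimum count of 50 (0.104) and with DESeq2 (-2.86, adjusted p = 0.0661), which called 0 members. In library A02 a count of 0 allows up to 39.3 CPM of Axin2, so the level of 20.4 CPM in A06 is the more precise of both.

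The remaining members gave no call in WT cells. Sp5 had a log2 difference of -1.76 between mixed and pure WT cells (SE 1.03, edgeR adjusted p = 0.636), with 8 reads against 122. Sp5 in A06 was below both pure WT libraries, while its 0 in A02 allows up to 39.3 CPM, above the 27.5 CPM of A05. Nkd1 had 1 read against 26, so that its ratio, 0.213, could lie anywhere from 0.00520 to 1.30 by counting error. Rnf43 had a log2 difference of 0.27 (SE 1.17, adjusted p = 0.976). Notum, Znrf3 and Tcf7 were at or under the limit of a count of 0 in mixed WT cells and too low in pure WT cells for a fold.

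The summed levels of stem and of Paneth cell markers, like the level of Axin2, were lower in both mixed than in both pure WT libraries. The 4 stem markers (Lgr5, Ascl2, Smoc2 and Olfm4) summed to 342 to 424 CPM in pure WT and to 78.6 to 174 CPM in mixed WT libraries, with Olfm4 at 0 reads in the latter. The 8 Paneth markers with a row summed to 2639 to 4961 CPM in pure WT and to 996 to 1629 CPM in mixed WT libraries. Single markers did not all keep this order. Lgr5 was at 49.8 CPM in A06 and 26.5 CPM in A01, and Ang4 at 392 and 308 CPM. Of the tested markers, 0 of 3 stem and 1 of 5 Paneth markers were called lower in mixed WT cells, where 0.741% of all tested genes were called. The part of these cells in the Axin2 difference was not tested, and in bulk samples fewer cells of a type and less RNA per cell cannot be told apart.

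Cancer cells, compared between mixed and pure culture, gave 0 calls among the members and 0% among all 5264 genes (edgeR, where 69 genes, Axin2 among them, had an unadjusted p under 0.05, and DESeq2 also called 0 members). Axin2 had a log2 difference of 1.61 (SE 0.66, edgeR adjusted p = 1), and both mixed cancer libraries were above both pure cancer libraries. Nkd1 had a difference of 0.03 (SE 0.60), Notum of 0.35 (SE 0.76), Rnf43 of -0.69 (SE 0.93) and Sp5 of 1.43 (SE 1.07), each with an adjusted p of 1. Stem markers summed to 36.7 to 65.8 CPM in pure cancer and 118 to 145 CPM in mixed cancer libraries, and their part in the Axin2 values was not tested.

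Whether mixing changed WT and cancer cells differently was tested as the difference of both changes. For Axin2 this difference was -4.48 on the log2 scale (SE 1.03, edgeR adjusted p = 0.165), where 0.076% of all tested genes were called. Axin2 was called on barcode counts (-4.37, edgeR adjusted p = 0.00172), on transcript counts (0.0338), without the filter (0.0175), with DESeq2 on reads (-4.52, adjusted p = 0.0397) and without A01 (0.00972), A03 (0.0259) or A07 (0.0201). It was not called without A02 (-4.13, edgeR adjusted p = 0.0628), A04 (0.0725), A05 (0.466), A06 (0.155) or A08 (0.159), with median-of-ratios factors (0.140) or at a minimum count of 50 (0.114). Sp5 had a difference of -3.19 (adjusted p = 0.672). On reads 0 of the 5 members were called by edgeR. An unadjusted p under 0.05 was seen for 2 of them, Axin2 and Sp5, and for 383 of all 5264 tested genes.

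**Figure D3:**
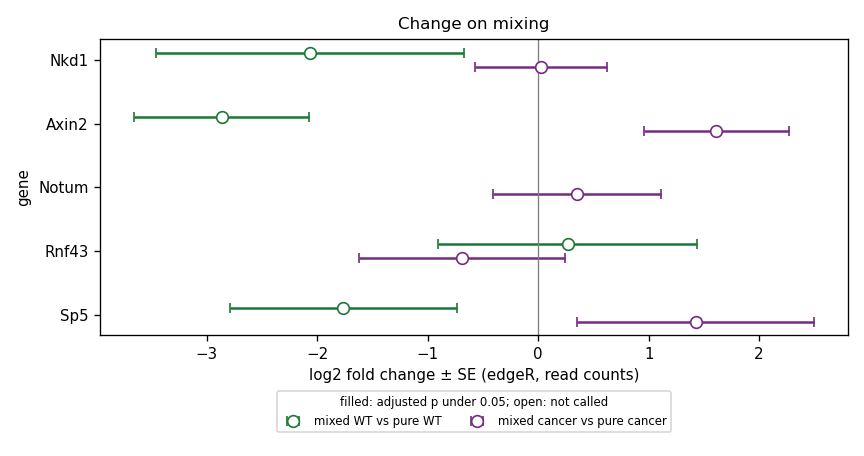
Log2 fold change on mixing (horizontal axis, edgeR on read counts, bars 1 SE) of the tested members in WT and in cancer cells; open points have an adjusted p of 0.05 or more, and Notum in WT cells is left out because too few reads were seen. Axin2 lies at -2.87 in WT and at 1.61 in cancer cells, and all points are open.

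Across the 8 libraries the members fell into different patterns, given here as descriptions, since the points share their depth and the zeros of A02. On log2 CPM, Nkd1 and Notum had a Pearson r of 0.787, Axin2 and Sp5 of 0.836, and Nkd1 and Sp5 of -0.01. Axin2 and Nkd1 had an r of 0.412. Among 2742 further genes averaging 50 reads or more over the libraries, those closest to the mean pattern of the 5 tested members were Cited4 (r = 0.988), Ckap4 (0.987), Cpne8 (0.983), Vars (0.982) and Slc48a1 (0.975). The CPM of Cited4 was 19.2 and 29.8 in pure WT, 0 and 13.6 in mixed WT, 121 and 147 in pure cancer and 129.7 and 249 in mixed cancer libraries. The single closest gene was Slc25a4 for Nkd1 (r = 0.974), Trim47 for Notum (0.986) and Ube2q1 for Axin2 (0.989).

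The other genes of the pathway were taken from hand-written lists and are ordered by role. Of the Wnt ligands, 5 of 25 were tested and 3 were called higher in cancer cells over both cultures, with none lower, where 6.8% of all tested genes were called higher. In pure culture 3 (5.11% of all genes) and in mixed culture 2 (2.01% of all genes) of them were called, all higher. Wnt6, Wnt7a and Wnt7b passed the filter on low counts through cancer libraries alone, so these counts are a description. Wnt7b had 3 and 3 reads for pure WT, 0 and 3 in mixed WT, 9 and 35 in pure cancer and 537 and 21 in mixed cancer libraries, a log2 difference over both cultures of 4.68 (SE 0.64, edgeR adjusted p = 8.05e-06). Wnt6 had 0 and 2 reads in pure WT, none in mixed WT, 4 and 19 in pure cancer and 251 and 28 in mixed cancer libraries (edgeR adjusted p = 4.33e-05 over both cultures). With the 0 reads of mixed WT cells set at 3, it was 9.08-fold higher in mixed cancer cells, and the lower counting limit of the ratio was 7.33. Wnt7a had 1 and 0 reads in pure WT, none in mixed WT, 0 and 17 in pure cancer and 78 and 12 in mixed cancer libraries (edgeR adjusted p = 0.00307 over both cultures). Wnt3, the ligand that Paneth cells supply to stem cells, had 15 and 21 reads for pure WT, 0 and 2 in mixed WT and none in any of the 4 cancer libraries, and did not pass the filter. With the 0 reads of pure cancer cells set at 3, it was 2.19-fold lower there than in pure WT cells, and the upper 95% counting limit of the ratio was 0.591.

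Few of the tested receptors and genes of the core machinery were called. The 7 tested receptors had a median log2 difference of -1.32 in pure and 0.25 in mixed culture. The medians over all tested genes were -0.05 and 0.12. With 2 libraries per group, a gene that was not called may still differ. Of 7 tested receptors, 1 was called, Lgr4, an R-spondin receptor (log2 difference -2.65 over both cultures, edgeR adjusted p = 0.0279). Lgr5, the related receptor of stem cells, had 29 and 120 reads for pure WT, 0 and 22 in mixed WT, 0 and 11 in pure cancer and 202 and 11 in mixed cancer libraries (-0.45, SE 0.67, adjusted p = 0.746). Of 11 tested genes of the destruction complex and Dishevelled, 0 were called in any comparison, Axin1, the constitutive relative of Axin2, among them (0.04, SE 0.60, adjusted p = 0.982). Of 8 tested nuclear effectors, 1 was called lower, Ctnnb1, which encodes β-catenin (-1.07, SE 0.34, edgeR adjusted p = 0.0369). Lgr4 was called in neither culture alone (edgeR adjusted p = 0.119 in pure and 0.313 in mixed culture). The same held for Ctnnb1 (edgeR adjusted p = 0.488 in pure and 0.0771 in mixed culture). Since 7.37% of all tested genes were called lower, a single call among 7 or 8 genes is near the background. Lgr4, Ctnnb1 and Axin1 were named after their values were seen.

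Of 23 further inhibitors, only Igfbp4, a secreted protein that can block Wnt co-receptors, was tested. In CPM, its levels were 131 and 128 for pure WT, 39.3 and 120.1 for mixed WT, 735 and 919 for pure cancer and 1017 and 1110.1 for mixed cancer libraries, with no overlap between the cell types. It was called higher in cancer cells over both cultures (log2 difference 3.10, SE 0.35, edgeR adjusted p = 5.23e-07).

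Other Wnt targets of the intestine moved both ways. Of 28 tested, 5 were higher and 7 lower in cancer cells over both cultures, where 6.8% and 7.37% of all tested genes were called, and their median log2 difference was 0.18, beside 0.04 over all tested genes. Ifitm1, an interferon-induced membrane protein, rose by 5.72 on the log2 scale over both cultures (SE 0.43, edgeR adjusted p = 8.73e-10). In pure culture it was at 15.6 and 7.87 CPM in WT and at 782 and 682 CPM in cancer libraries. Its relative Ifitm3 rose by 1.90 (SE 0.35), and Mmp7, a matrix protease of Paneth cells, rose by 2.92 (SE 0.37, edgeR adjusted p = 2.53e-06). Tnfrsf19, a receptor of the TNF family, had 0 and 25 reads in pure WT, none in mixed WT, 10 and 15 in pure cancer and 394 and 24 in mixed cancer libraries (edgeR adjusted p = 0.000750 over both cultures). The fifth gene called higher was Ccnd1, cyclin D1 (1.31, SE 0.34, edgeR adjusted p = 0.00807), named after its value was seen. On the other side, Cdx1, an intestinal homeobox factor, had 302 and 477 reads for pure WT, 1 and 56 in mixed WT, none in pure cancer and 4 and 0 in mixed cancer libraries (edgeR adjusted p = 2.29e-07 over both cultures). Smoc2, a stem cell marker, had 179 and 382 reads for pure WT, 4 and 36 in mixed WT, none in pure cancer and 4 and 0 in mixed cancer libraries (edgeR adjusted p = 2.51e-07). Rgmb, a co-receptor of the BMP pathway, had 58 and 71 reads for pure WT, 4 and 3 in mixed WT, none in pure cancer and 12 and 0 in mixed cancer libraries (edgeR adjusted p = 0.00306). Slc12a2, an ion cotransporter, fell by 2.28 (SE 0.58, edgeR adjusted p = 0.00698). Cdca7 and Lbh, named after their values were seen, were also called lower, with log2 differences of -1.99 and -2.47. Ifitm1 and Tnfrsf19 passed the filter on low counts through cancer libraries alone, and Cdx1, Smoc2, Rgmb and Lbh through WT libraries alone. In pure culture alone 2 of the 28 were called higher and 5 lower, and in mixed culture 4 higher and 2 lower, beside 5.11% and 4.84% of all genes in pure and 2.01% and 4.41% in mixed culture.

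**Figure D4:**
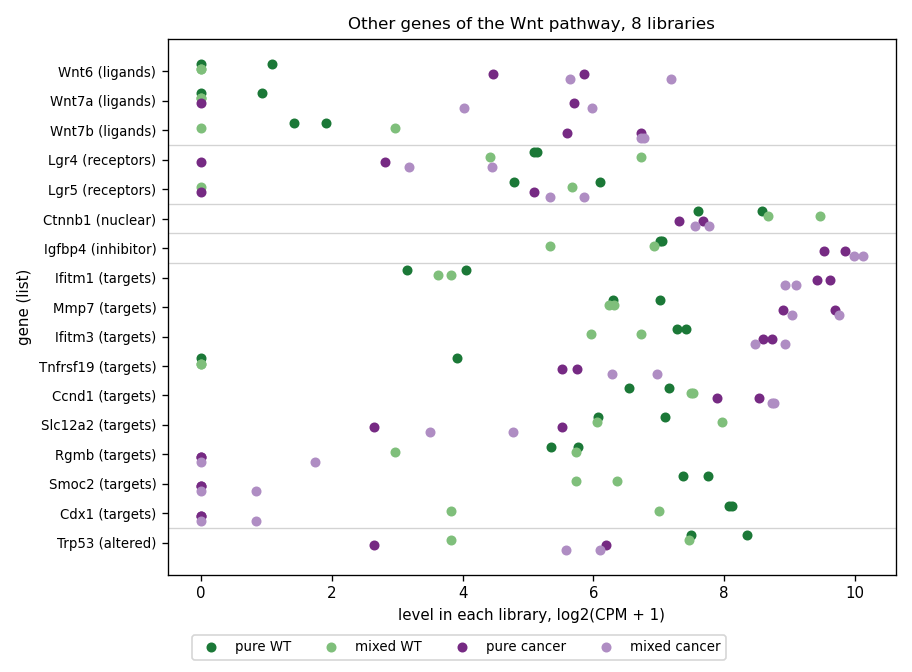
Level of the named genes of the other Wnt lists in each of the 8 libraries, as log2(CPM + 1) on the horizontal axis, colored by group and ordered by role. Igfbp4, Ifitm1 and Mmp7 are higher in all cancer libraries than in all WT libraries, whereas Smoc2 and Cdx1 are at or near 0 in cancer libraries.

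Of the genes altered in the cancer line, Trp53 had a log2 difference over both cultures of -1.75 (SE 0.53, edgeR adjusted p = 0.0264), with 195 and 576 reads for pure WT, 1 and 77 in mixed WT, 1 and 24 in pure cancer and 344 and 9 in mixed cancer libraries. It was called lower in pure culture (-2.56, edgeR adjusted p = 0.0323) and not called in mixed culture (-0.93, edgeR adjusted p = 0.604). Markers of differentiated cells moved with the cell type as well. The 6 enteroendocrine markers summed to 329 to 672 CPM in WT and to 1.37 CPM or less in cancer libraries. The 8 enterocyte markers summed to 871 to 1534 CPM in WT and to 59.9 to 132 CPM in cancer libraries. Paneth markers summed to 552 to 887 CPM in cancer libraries, of which Mmp7 alone made 478 to 861 CPM. Of the 5 tested, 4 (Lyz1, Ang4, Itln1 and Pla2g2a) were called lower in cancer cells over both cultures, beside 7.37% of all tested genes. Mmp7 was called higher. Lyz1 and Ang4 passed the filter on low counts through WT libraries alone, so this count is a description. The 5 goblet markers with a row summed to 2346 to 3740 CPM in WT and to 455 to 1113 CPM in cancer libraries. Of the latter, Spink4 alone made 449 to 1102 CPM, and it was not called. Beside the higher Nkd1 and Notum in cancer cells, the part of these cell types was not tested.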

How the data were processed

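RNA was sequenced in bulk from sorted WT and cancer cells (CEL-Seq, 3′ ends, with molecule barcodes). Per the methods, reads were mapped to mm10 with BWA and assigned with featureCounts (versions not given in the sources used here). The authors deposited read counts per gene, barcode counts of different molecules (at most 256 per gene) and estimated counts of transcripts derived from the latter. A deposited DESeq2 table of the authors' own comparison was not used. The files hold 2 entries that are not genes, with 1 read in all, which were left out.

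Read counts were tested with edgeR 4.0.16 in R 4.3.3: filterByExpr at a minimum count of 10, TMM factors, 1 quasi-likelihood fit of all 8 libraries, Benjamini-Hochberg adjustment over 5264 genes, called at an adjusted p under 0.05. The standard error is the log2 fold change over the square root of F. CPM divides reads by the filtered library size times its TMM factor. Depth was 73109 to 4733121 reads, and the limit of a count of 0 was set at 3 reads. Single genes were compared by exact permutation of log2 CPM with a prior count of 2. No pairs were formed, as wells share no number between groups. Only the comparison over both cultures was also run on simulated counts, drawn with the spread estimated from these data. No result here rests on that run.

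Alternatives were barcode counts, rounded transcript counts, median-of-ratios factors, a minimum count of 50 or no filter at all, the 4 libraries compared alone, each library left out, DESeq2 1.42.0, and prior counts of 0.5 or 10. The members, the lists and the alternatives were chosen with earlier results of these data known. Named were all members, up to 12 called genes of the other Wnt lists in order of adjusted p over both cultures, Apc, Trp53, Lgr5 and Wnt3, and the genes closest in pattern. Some listed genes and alleles are not reported here. Positions are from GENCODE vM21 (GRCm38) and promoters from RefSeq.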

Additional observations from a re-analysis of the deposited data

Results flagged for a closer look

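The change of Axin2 on mixing differed between WT and cancer cells by -4.48 on the log2 scale (edgeR adjusted p = 0.165). Both mixed WT libraries, at 0 and 20.4 CPM, were below both pure WT libraries, at 76.0 and 155 CPM, while both mixed cancer libraries, at 115 and 275 CPM, were above both pure cancer libraries, at 52.5 and 68.8 CPM. The difference did not pass the adjustment on read counts and passed it on barcode counts (edgeR adjusted p = 0.00172). It passed in 7 of 14 alternatives, and the adjusted p ranged from 0.00172 to 0.466 over them.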

How the results depend on the processing

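Nkd1 was called higher in cancer cells in pure, mixed and both cultures under each alternative that tested it. Without A06 its log2 difference in mixed culture was 3.97, in place of 6.49, and mixed WT cells were then represented by 1 read in A02. At a minimum count of 50 only 2 members were tested, and 1, Nkd1, was called in pure culture and over both cultures, in place of 2. On leaving out single libraries, 2 members were called each time in pure culture and over both cultures, and 2 to 3 in mixed culture. For mixed against pure WT cells, 1 member, Axin2, was called in place of 0 on barcode counts, on transcript counts, without the filter and with only the 4 libraries compared, and 0 to 1 on leaving out single libraries. For the difference of the mixing changes, 1 member, Axin2, was called in place of 0 on barcode counts, on transcript counts, without the filter and with DESeq2, and 0 to 1 on leaving out single libraries. The causes were not tested. Differences of 3 members that were not called changed sign. That of Sp5 over both cultures was 0.42 on barcode and 0.37 on transcript counts and lay between -1.03 and 0.17 on leaving out single libraries. That of Nkd1 between mixed and pure cancer cells was -0.36 on barcode and -0.26 on transcript counts and lay between -0.44 and 0.81 on leaving out single libraries, and that of Notum lay between -0.26 and 1.71. Over all tested genes, 39 were called between mixed and pure WT cells, and 2 (without A06) to 118 (without A07) under the alternatives. For the difference of the mixing changes, 4 genes were called, and 1 to 32 under the alternatives. In pure culture, 524 were called, and 232 (minimum count of 50) to 745 (without A02) under the alternatives. In mixed culture, 338 were called, and 151 to 506 under the alternatives, and over both cultures 746, and 314 to 963. No paired analysis was possible because the labels give no replicate number shared between groups, and the order of the wells is not a label that pairs samples. Depth limits mixed WT cells most, where 3 reads make 5.80 CPM over both libraries.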
